A study of Mus musculus with 12 samples.

Results

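The Iroquois genes lie in 2 clusters of the mouse genome, IrxA on chromosome 13 (Irx1, Irx2 and Irx4) and IrxB on chromosome 8 (Irx3, Irx5 and Irx6), and the data show the H3K27ac landscape of both clusters without and with induction of the transcription factor GLI1. All 6 genes were taken, with a window from the outermost gene ends plus 600 kb on each side for IrxA (71358232 to 73869622, 2.51 Mb) and 200 kb for IrxB (91598511 to 92880956, 1.28 Mb), in mm10 coordinates. The windows held 103 of 67463 H3K27ac intervals of control cells, 92 of 76437 of dox cells and 4 of 2605 GLI1 sites. Intervals of the 2 conditions that shared at least 1 bp were merged, which gave 131 of 94481 regions, 92 in IrxA and 39 in IrxB. The rule that chose the members is one of position and used no measured value, though earlier results of these data were known when it was set.

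Cells of every group were cardiac progenitors differentiated from mouse embryonic stem cells of the line GLI1-FTA, made in the A2Lox.cre background, and were harvested on day 6. Dox cells received 500 ng/ml doxycycline for 24 hours from day 5 to express tagged GLI1, and control cells of the same line were untreated. Of the 6 groups of 2 samples, 3 entered here (H3K27ac immunoprecipitation of control and of dox cells, and streptavidin pulldown of GLI1 from dox cells). No group held cells without the transgene that were given doxycycline, so effects of GLI1 and of doxycycline itself cannot be told apart. Each list pools the replicates of its group, so there is 1 list per condition with no spread between samples; no difference was tested and no p-value is given. The depth of each library is unknown, but the uniform backgrounds of the pooled lists stood in a ratio of 1.28 (dox over control), which was taken as the ratio of their depths.

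Iroquois proteins are homeodomain transcription factors of the TALE class, and the clusters are known to share long-range enhancers spread over the gene-poor DNA between and beside the genes. In the heart Irx4 is known as a ventricular factor, Irx3 acts in the conduction system, Irx5 sets the gradient of repolarization across the ventricle wall, and Irx1 and Irx2 are expressed in the ventricular septum. Hedgehog signals pattern Iroquois expression in other tissues, the best known case being the exclusion of Irx3 from the ventral neural tube. H3K27ac marks active promoters and enhancers, and GLI1 is the transcriptional activator at the end of the Hedgehog pathway.

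Promoter sequences were at hand for 3 of the 6 genes, and for Crnde, the long noncoding RNA gene beside Irx5. They are shown because H3K27ac covered these starts to very different degrees, from the whole sequence at Irx3 to none at Irx4. Each is the run of 250 bases before the start given by RefSeq (GRCm38.p6, the build of mm10), 5′ to 3′ on the strand of the gene, and capitals mark the Gli core CCACCC or its reverse complement GGGTGG.
Irx2, chr13:72628570-72628819, plus strand: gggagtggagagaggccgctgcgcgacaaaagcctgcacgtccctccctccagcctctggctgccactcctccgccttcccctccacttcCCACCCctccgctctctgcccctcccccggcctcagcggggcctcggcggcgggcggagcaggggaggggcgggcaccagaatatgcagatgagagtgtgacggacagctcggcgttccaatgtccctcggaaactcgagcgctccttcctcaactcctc
Irx4, chr13:73260247-73260496, plus strand: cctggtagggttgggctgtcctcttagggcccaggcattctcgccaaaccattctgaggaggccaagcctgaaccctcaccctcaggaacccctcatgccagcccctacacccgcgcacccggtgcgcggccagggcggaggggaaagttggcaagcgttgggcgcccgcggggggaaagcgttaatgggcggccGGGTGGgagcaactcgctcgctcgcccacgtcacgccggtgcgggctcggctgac
Irx3, chr8:91801655-91801904, minus strand: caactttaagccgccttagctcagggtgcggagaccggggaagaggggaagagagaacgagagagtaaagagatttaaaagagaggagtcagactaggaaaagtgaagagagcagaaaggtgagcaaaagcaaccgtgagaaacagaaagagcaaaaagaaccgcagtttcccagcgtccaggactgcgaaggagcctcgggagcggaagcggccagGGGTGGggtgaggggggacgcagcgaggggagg
Crnde, chr8:92356121-92356370, minus strand: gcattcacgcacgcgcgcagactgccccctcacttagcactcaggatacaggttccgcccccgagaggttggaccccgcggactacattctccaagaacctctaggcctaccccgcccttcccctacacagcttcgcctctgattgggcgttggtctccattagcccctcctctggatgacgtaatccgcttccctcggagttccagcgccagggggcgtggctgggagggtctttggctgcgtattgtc
The full Gli consensus GACCACCCA (TGGGTGGTC on the other strand) was in none of these 4 sequences, and 0.225% of 32851 RefSeq promoter sequences of this length hold it. The 6-letter core, part of the consensus, occurs once each before Irx2, Irx4 and Irx3 and is held by 28.1% of all promoters. CG pairs numbered 19 at Irx2, 22 at Irx4, 13 at Irx3 and 17 at Crnde, against a median of 6 over all promoters. These counts lay at the 80.3rd, 85.2nd, 68.5th and 76.5th percentiles. Control H3K27ac intervals covered 250 of the 250 bases shown for Irx3, 21 of those for Irx2, 56 of those for Crnde and 0 of those for Irx4, and dox intervals covered 250, 0, 133 and 0. The start of Irx4 was thus without a called interval in both conditions.

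The first comparison asked how H3K27ac at the 6 genes themselves stood in untreated and induced cells. Fold enrichment, the authors' ratio of the read pileup at a summit to the local background, is given for the strongest region within 1000 bp of a gene end, and log2 ratios are of dox over control, less their median over every shared region (−0.13). Irx1, Irx3 and Irx5 each had such a region in both conditions, with a log2 ratio below 0, as had 36.6% of all measured genes. Over all 20467 analysed protein-coding genes, 48.1% had one in both conditions and 46.7% in neither.

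Irx1 (71958232 to 71963723) showed the largest difference among the 6 genes. Its main region (71961238 to 71963792), at the higher-coordinate end, stood at 12.3 in control and 4.54 in dox cells, from pileups of 46 reads (95% Poisson interval 33.7 to 61.4) and 20 reads (12.2 to 30.9). The log2 ratio was −1.30 (95% counting interval −2.18 to −0.56), at the 0.751st percentile of the 9852 genes measured in both conditions. Of those genes 2.04% had a ratio of −1 or lower. Another 3 regions in or within 241 bp of the gene were called in control cells alone, at 4.16, 5.33 and 6.66. Inside the gene, control intervals covered 3218 bp and dox intervals 1224 bp. Intervals on pileups cover counting error only, and reads of a library need not be independent molecules.

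Irx3 (91798511 to 91801654) had the strongest region of the 6 genes. Its single region (91800489 to 91802622), which spans the start, had 14.1 in control and 10.6 in dox cells, from 59 (44.9 to 76.1) and 48 reads (35.4 to 63.6). The log2 ratio of −0.28 had a counting interval of −0.86 to 0.29, so that a difference from the median of all shared regions was not detectable at this depth.

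Irx5 (92357796 to 92361456) had 11.2 in control and 7.68 in dox cells at a region from 92357839 to 92358771, a log2 ratio of −0.42 (−1.07 to 0.20). The DNA between Irx5 and Crnde, which are transcribed away from each other, held another region (92356378 to 92357570) with 8.91 in control and 3.89 in dox cells. Its ratio was −1.06 (−2.03 to −0.24), one of 2 regions of the IrxB window at −1 or lower. At Crnde the region around the start (92355497 to 92356253) had 9.40 and 6.70, a ratio of −0.36 (−1.12 to 0.38). The ratios of the 4 shared regions from Crnde to Irx5 ran from −1.06 to 0.03. Their counting intervals all overlapped, and differences between them were not tested.

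Irx2, Irx4 and Irx6 had no region within 1000 bp of an outer gene end in either list. For Irx2 (72624430 to 72634196) the outer end belongs to a longer transcript model; at the start of the promoter shown above (72628820), the values were 5.22 in control and 4.11 in dox cells, a ratio of −0.21 (−1.23 to 0.79). Control cells had a second interval just before it (72627999 to 72628590; 5.05), which was not called in dox cells. Within 1000 bp of that start control intervals covered 1228 bp and dox intervals 293 bp.

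Irx4, the ventricular member (73259589 to 73269622), had no interval within 50000 bp on either side. The nearest lay 58.3 kb away in control and 58.2 kb away in dox cells, at the ends of Ndufs6 and Mrpl36, nuclear genes that encode mitochondrial proteins. Irx6 (92674289 to 92680956) had no interval in the gene, and the nearest region lay 23.6 kb beyond its higher-coordinate end. That region (92704599 to 92707997) was the strongest of the IrxB window in control cells, at 29.2, and had 12.1 in dox cells. From pileups of 111 (91.3 to 134) and 59 reads (44.9 to 76.1), its log2 ratio was −1.14 (−1.63 to −0.69), and its covered length was 3399 bp in control and 2161 bp in dox cells. Irx1, Irx3, Irx5 and, at its start, Irx2 were therefore marked in untreated cells, while Irx4 and Irx6 were not marked in either condition.

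The same lists were read for markers of the cells, over whole genes plus 1000 bp. The share of all genes with a region by this wider measure is not given here, so the marker counts have no background beside them. Of 10 cardiac progenitor markers 8 had a region in each condition, with a median of 20.5 in control and 13.6 in dox cells, and Nkx2-5 and Tbx5 had none in either. At gene ends, where a background is at hand, 5 of the 10 had a region in both conditions, beside 48.1% of all analysed genes. By that measure the count does not set these markers apart from other genes. Of the 5 measured at gene ends, Myocd, a cardiac muscle coactivator gene, had 14.3 and 4.32, Tnnt2, a cardiac troponin gene, 10.4 and 3.74, and Hand2 24.5 and 10.8. Gata6 (26.7 and 20.5; log2 ratio −0.25) and Isl1 (20.2 and 21.0; 0.19) differed less. Neural markers had a region in 2 of 5 genes (Sox2 and Nes) and pluripotency markers in 3 of 5 in each condition, with medians of 19.8 and 19.9 for the former and of 12.1 and 7.87 for the latter. Endothelial markers had one in 2 of 5 genes in control (Pecam1 and Tek) and in 5 of 5 in dox cells. At gene ends Pecam1 had 11.7 and 11.2 (0.07) and Tek 3.39 and 5.19 (0.74). Cdh5 (3.13), Kdr (2.82) and Tal1 (4.75) were called there in dox cells alone, where the median over all dox intervals was 4.11. Endoderm markers had one in 1 of 5 genes in control (Hnf4a, 5.74) and in 3 of 5 in dox cells, Foxa2 reaching 34.0. Sox17 and Afp had none in either condition. GLI1 itself bound near Foxa2 and Ttr, the genes called in dox cells alone, with the closest sites 5894 and 24100 bp away. The unmarked Afp also had a site, at 48059 bp. Whether the marks at Foxa2 and Ttr reflect endoderm cells or nearby GLI1 was not tested. The part of a changed mix of cells in the Iroquois values was not tested, and fewer marked cells and less H3K27ac per cell cannot be told apart in pooled cells.

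**Figure D1:**
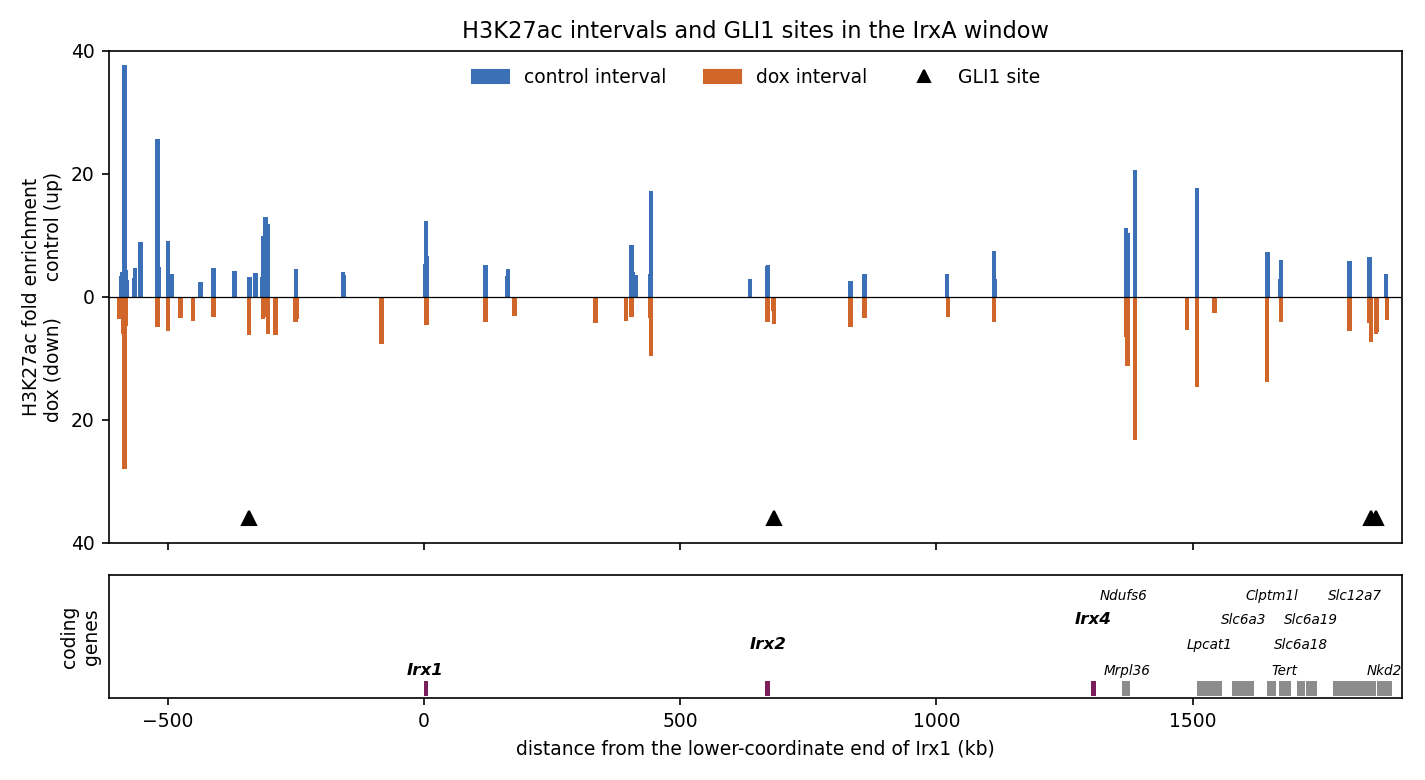
Fold enrichment of each H3K27ac interval of the IrxA window in control cells (up) and dox cells (down) against the distance from the lower-coordinate end of Irx1 in kb, with GLI1 sites as triangles and protein-coding genes below; narrow intervals are drawn wider than they are so that they can be seen. Control intervals reach 37.7 and dox intervals 28.0 at the left edge, 4 GLI1 sites are marked, and no interval lies at Irx4.

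The second comparison asked how the surroundings of the IrxA genes changed. Of the 92 regions, 28 were shared, 39 were in the control list alone and 25 in the dox list alone. Control-only regions made up 42.4% of the window's regions, against 27.1% over the genome, and dox-only regions 27.2%, against 35.5%. There were 1.56 control-only regions per dox-only region, while the genome outside both clusters had 0.763. H3K27ac covered 54.9 kb of the window in control and 45.4 kb in dox cells, or 82.8% as much, whereas over the genome dox intervals covered 110% of the control length.

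The excess of control-only regions was largest in the 600 kb before Irx1, which hold only genes of long noncoding RNAs. Beyond Irx2 dox-only regions were the larger class and covered length was greater in dox cells. Among 45 regions before Irx1, 25 were control-only and 9 dox-only, and covered length was 31.1 kb in control and 18.5 kb in dox cells. A region 519 kb from Irx1 (71435958 to 71439345) had 25.6 in control and 4.92 in dox cells, from 108 (88.6 to 130) and 24 reads (15.4 to 35.7). Its log2 ratio of −2.25 (−2.99 to −1.64) was the lowest of both windows, at the 0.105th percentile of all shared regions. In dox cells its 3388 bp broke up into 3 intervals that covered 1602 bp.

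Between 304 and 315 kb from Irx1 lay a group of regions that were all weaker or not called in dox cells. The region from 71646710 to 71650256 had 12.9 in control and 3.24 in dox cells, a ratio of −1.86 (−2.90 to −1.07), and its covered length was 3547 bp in control and 242 bp in dox cells. Its neighbour (71643589 to 71645609) had 9.85 and 3.63, a ratio of −1.31 (−2.27 to −0.51), and the region from 71652900 to 71654424 had 11.7 and 6.05, a ratio of −0.82 (−1.59 to −0.13). Small regions between and beside them (3 in number) were in the control list alone.

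Other regions of this flank differed less. The strongest region of both windows (71370867 to 71375414), 583 kb from Irx1 at the end of the noncoding gene Gm40998, had 37.7 in control and 28.0 in dox cells, a ratio of −0.30 (−0.64 to 0.04) from 164 and 138 reads. The strongest control-only region of the window lay 553 kb from Irx1 (71403474 to 71405442), with 8.88. The strongest dox-only region, with 7.68, lay 82.1 kb from Irx1 (71874870 to 71876154), and another with 6.27 lay 290 kb away (71668034 to 71668497). The flank before Irx1 thus held single-list regions of both kinds, with those of control cells in the majority.

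Between Irx1 and Irx2, 661 kb apart, 7 regions were control-only, 5 dox-only and 4 shared. The strongest of them (72399970 to 72402091), 222 kb from Irx2, had 17.2 in control and 9.64 in dox cells, a ratio of −0.71 (−1.28 to −0.15). One nearby (72361843 to 72364278) had 8.35 and 3.24, a ratio of −1.23 (−2.31 to −0.33). Between Irx2 and Irx4, 625 kb apart, there were 9 regions, of which 4 were dox-only, 3 shared and 2 control-only, and covered length was 2.35 kb in control and 3.55 kb in dox cells. One of the shared regions there (72790371 to 72791523) was higher in dox cells, at 2.61 and 4.97, with a ratio of 1.06 (−0.03 to 2.45) whose counting interval reached past 0.

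Beyond Irx4, too, dox-only regions were the larger class, with 2 control-only and 7 dox-only regions and a covered length of 9.40 kb in control and 16.1 kb in dox cells. This flank holds 10 other protein-coding genes. Strong regions lay at the noncoding RNA gene Eprn (20.6 and 23.3; ratio 0.31), at Lpcat1, which encodes a lysophosphatidylcholine acyltransferase (17.7 and 14.7; −0.14), and at Mrpl36, which encodes a mitochondrial ribosomal protein (10.4 and 11.2; 0.24). The region that overlaps the adjoining ends of Ndufs6 and Mrpl36 (73327870 to 73329321) had 11.2 and 6.59, a ratio of −0.63 (−1.27 to 0.01). The region at Clptm1l (73603437 to 73604637) had 7.31 and 13.9, a ratio of 1.06 (0.44 to 1.79). The ends of Slc12a7 (6.05) and of Nkd2, a Wnt antagonist gene (5.71), were marked in dox cells alone, and those of Slc6a3, Tert, Slc6a18 and Slc6a19 in neither condition. The region counted for Nkd2 lies between the genes, 137 bp from Slc12a7. Inside Slc12a7 were also shared regions (5.88 and 5.51, and 6.53 and 4.32). Inside Nkd2 were a control-only (3.66) and a dox-only region (3.80).

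Over the 28 shared regions of IrxA the median log2 ratio was −0.32 (range −2.25 to 1.13). Ratios of −1 or lower were found in 5 of them (17.9%; 8.31% of all shared regions) and ratios of 1 or higher in 3 (10.7%; 6.78% of all). Below 0 lay 18 of the 28, where 50% is the share over the genome.

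**Figure D2:**
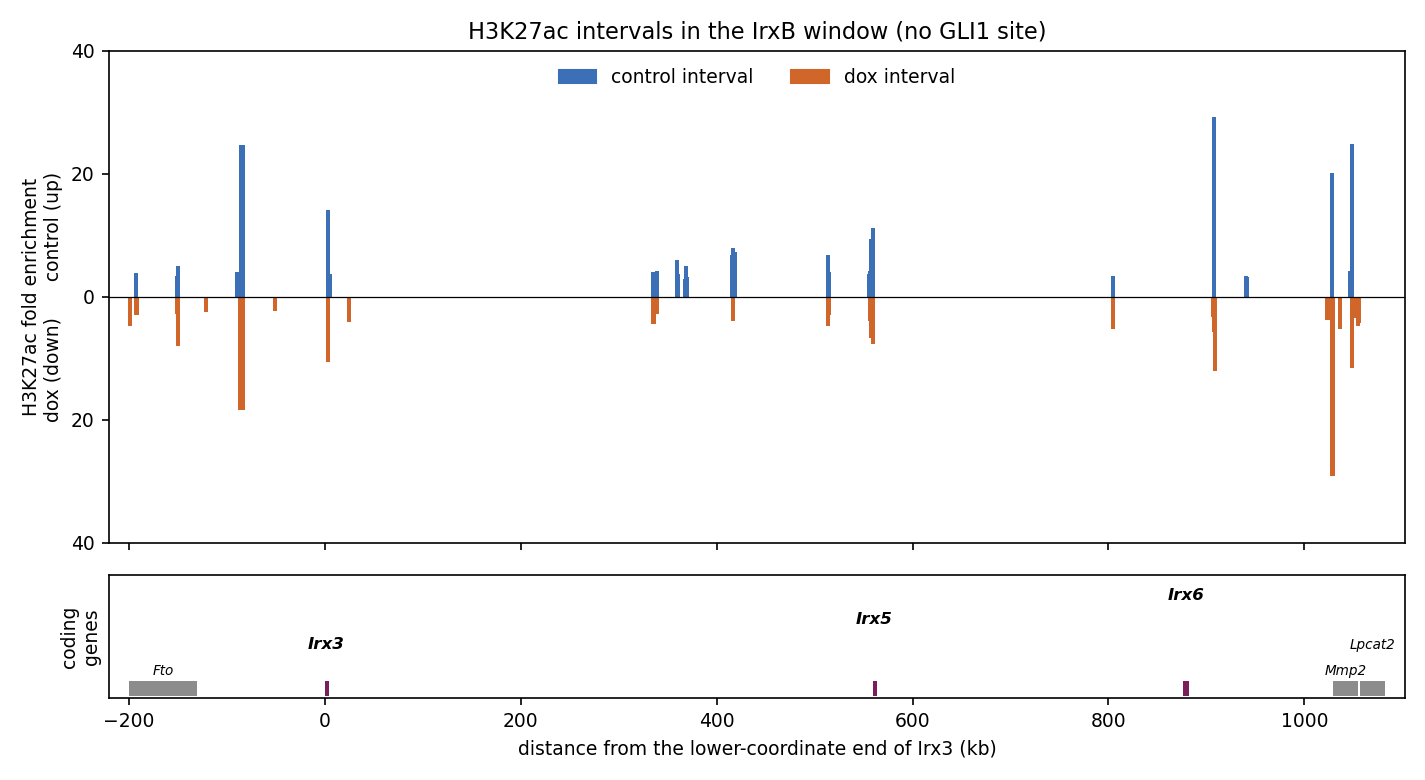
Fold enrichment of each H3K27ac interval of the IrxB window in control cells (up) and dox cells (down) against the distance from the lower-coordinate end of Irx3 in kb, with protein-coding genes below; narrow intervals are drawn wider than they are. The highest control interval (29.2) stands beyond Irx6, the highest dox interval (29.1) at Mmp2, and the stretch between Irx5 and Irx6 holds 1 region.

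The third comparison asked the same of IrxB. Of its 39 regions, 18 were shared, 13 control-only and 8 dox-only. Control-only regions made up 33.3% (27.1% over the genome) and dox-only regions 20.5% (35.5%). The ratio of control-only to dox-only regions was 1.63, beside 1.56 in IrxA, from counts that are small in both classes. The 2 windows have unlike margins (200 kb for IrxB and 600 kb for IrxA), so a likeness of the clusters cannot be read from these ratios. Covered length was 31.1 kb in control and 27.5 kb in dox cells (88.4%).

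The 556 kb between Irx3 and Irx5 held 9 control-only regions and 1 dox-only region, and covered length there was 9.71 kb in control and 4.97 kb in dox cells. Of the control-only regions of this gap, 7 stood in small groups 140 to 200 kb from Irx5. The strongest had 7.31 (92216102 to 92217443), 6.79 (92213976 to 92214422) and 6.01 (92157687 to 92158181). A shared region between the first 2 of these (92214783 to 92215961) had 7.98 in control and 3.89 in dox cells, a ratio of −0.90 (−1.88 to −0.06). In the whole block from 92213976 to 92217443, 1 of 3 regions was thus still called in dox cells.

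Toward Fto the picture was mixed. The largest region of the window by length (91710422 to 91716873), 81.6 kb from Irx3 at the noncoding gene Gm36325, had 24.7 in control and 18.4 in dox cells, a ratio of −0.30 (−0.74 to 0.14), with 98 and 84 reads. Inside the last part of Fto, an RNA demethylase gene whose introns are known to hold regulatory DNA of Irx3, a region 149 kb from Irx3 (91648428 to 91649606) had 4.99 and 7.99, a ratio of 0.81 (0.04 to 1.65), and a dox-only region (91599318 to 91600023) had 4.72. The flank before Irx3 held 3 dox-only regions and 1 control-only region.

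Between Irx5 and Irx6, 313 kb apart, a single weak shared region was called (3.33 and 5.19). In the flank after Irx6, regions at Mmp2, which encodes matrix metalloproteinase 2, differed in direction. Its lower-coordinate end (92825619 to 92828726) had 20.1 in control and 29.1 in dox cells, a ratio of 0.67 (0.28 to 1.08), whereas a region inside the gene (92845552 to 92849377) had 24.8 and 11.7, a ratio of −0.96 (−1.48 to −0.47). Dox-only regions with 5.19 and 4.77 also lay in Mmp2. Lpcat2, the next gene, had no region at its ends.

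Over the 18 shared regions of IrxB the median was −0.30 (range −1.14 to 0.81). Ratios of −1 or lower were found in 2 (11.1%; 8.31% of all shared regions), of 1 or higher in none (6.78% of all). Both counts were near those shares. Below 0 lay 13 of the 18, where 50% is the share over the genome. The 95% interval of the median from its order statistics, over regions that are not replicates, was −0.63 to 0.05 in IrxA and −0.44 to 0.03 in IrxB, and so held 0 in both.

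**Figure D3:**
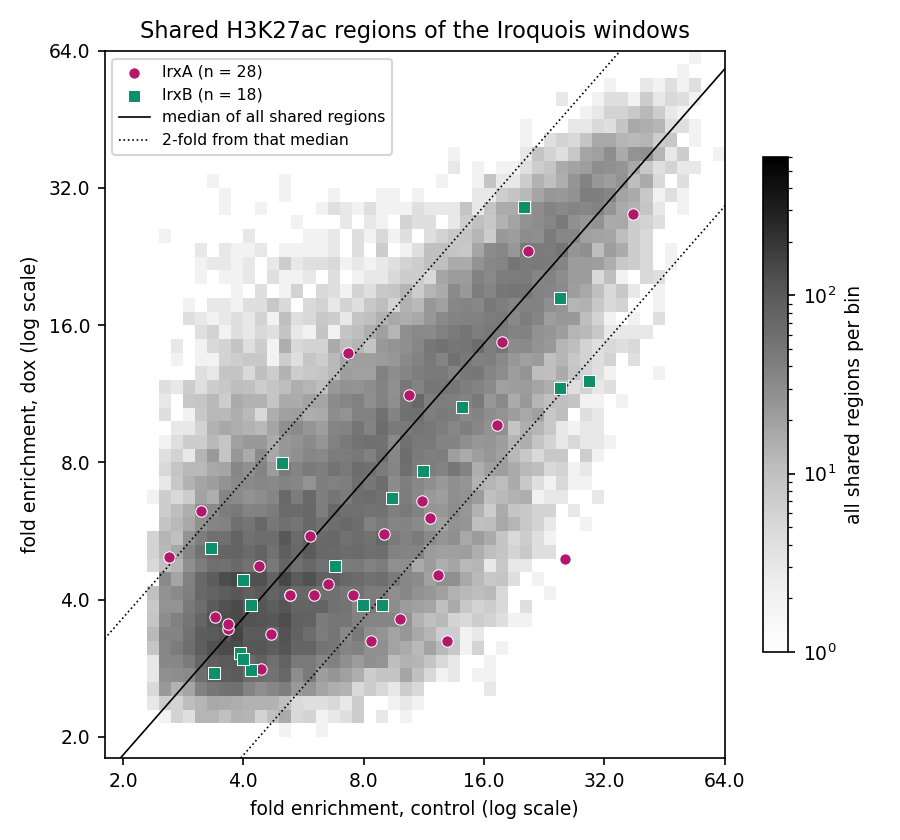
Fold enrichment in dox cells against control cells, both on log scales, for the 28 shared regions of IrxA and the 18 of IrxB over the density of all 35389 shared regions (grey); the solid line is the median ratio of all shared regions and dotted lines lie 2-fold from it. Of the 46 coloured points, 31 lie below the solid line, and the lowest for its control value is the IrxA region with 25.6 in control and 4.92 in dox cells.

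Both clusters were set beside regions of a like kind. Shared regions with a control fold enrichment of at least 10 had a median of −0.12 over the genome, with 57.9% below 0 and 15.6% at −1 or lower. The 16 such regions of the clusters had a median of −0.52, with 13 below 0 and 4 at −1 or lower. Away from the ends of protein-coding genes, 30.0% of all regions were control-only and 39.4% dox-only. In IrxA 38 of 84 such regions (45.2%) were control-only and 23 (27.4%) dox-only, and in IrxB 13 of 33 (39.4%) and 6 (18.2%). The counting interval of the log2 ratio lay wholly below 0 in 11 of the 46 shared regions (15.1% over the genome), wholly above 0 in 4 (14.5%), and held 0 in the other 31.

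**Figure D4:**
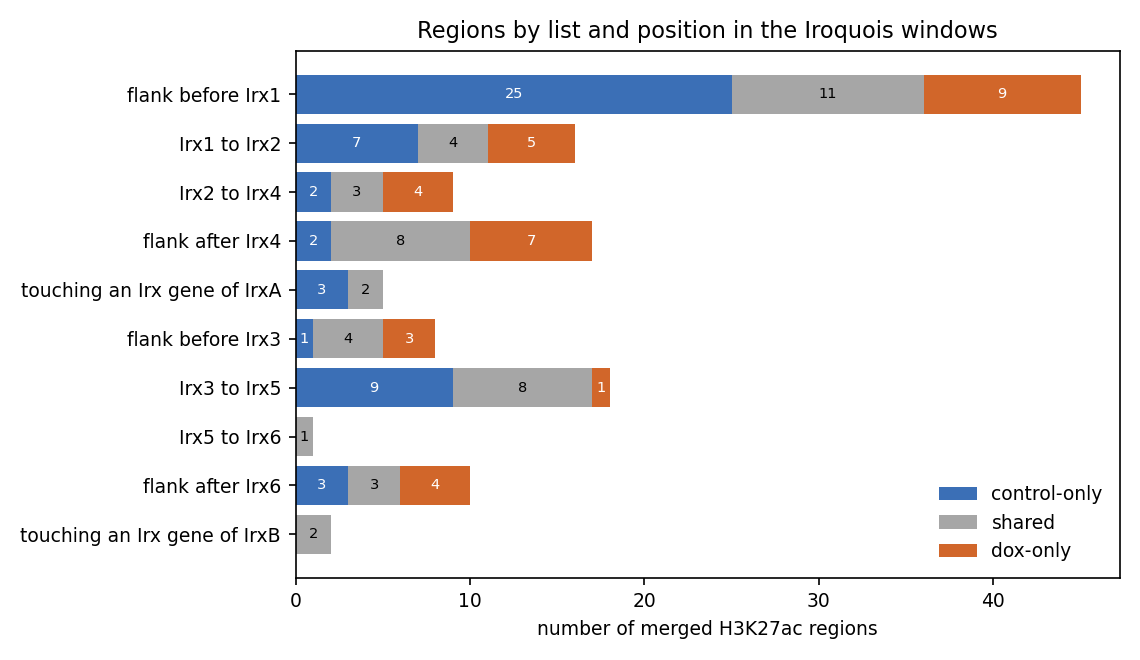
Number of merged H3K27ac regions in the control list alone, in both lists and in the dox list alone, for each stretch of the IrxA and IrxB windows and for regions touching an Irx gene. Control-only regions outnumber dox-only regions most before Irx1 (25 and 9) and between Irx3 and Irx5 (9 and 1), and dox-only regions outnumber them after Irx4 (7 and 2), between Irx2 and Irx4 (4 and 2), before Irx3 (3 and 1) and after Irx6 (4 and 3).

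The fourth comparison asked where GLI1 bound and what H3K27ac did there. All 4 sites lay in the IrxA window and none in IrxB, where the nearest lay 741 kb before Irx3 and 840 kb beyond Irx6. Irx2 alone of the 6 genes had a site within 50000 bp, as did 13.4% of all analysed genes. Of the 4 sites, 3 lay in a dox interval and 1 in a control interval, where the shares over all sites were 75% and 25%.

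The site nearest to an Irx gene (72640802 to 72640902; −log10 q 51.4) lay 6.61 kb beyond the higher-coordinate end of Irx2. It was in no interval but stood between 2 dox-only regions, 243 bp from one (72640325 to 72640558; fold enrichment 2.25) and 260 bp from the other (72641163 to 72641746; 4.50). The nearest control interval lay 11274 bp away, at the start of Irx2. The pileups of 17 (9.90 to 27.2) and 20 reads (12.2 to 30.9) make these weak regions. At that start the values were 5.22 in control and 4.11 in dox cells, as given above.

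The site in the flank before Irx1 (71616568 to 71616668; −log10 q 24.6), 342 kb from the gene, lay in the region with the highest ratio of both windows (71615903 to 71617978). It had 3.13 in control and 6.27 in dox cells, a ratio of 1.13 (0.16 to 2.36). The next 4 regions toward Irx1, at 327 to 329 kb, were control-only with 2.87 to 3.92, and behind them came the group at 304 to 315 kb. A GLI1 region that was higher in dox cells therefore lay beside 10 regions in a row that were lower or not called there.

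The remaining pair of sites lay far from the Irx genes, at Slc12a7, which encodes a potassium-chloride cotransporter, 537 and 547 kb from Irx4. One (73807008 to 73807108; −log10 q 52.4) was inside the gene, in a dox-only region of 2611 bp with 7.35. The other (73816818 to 73816918; −log10 q 60.9) was 64 bp beyond its end, 70 bp from one dox-only region (6.05) and sharing 28 bp with another (5.71).

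Within 1000 bp of the 4 sites lay 6 regions, of which 5 were dox-only, 1 was shared and higher in dox cells, and none was control-only. Over all GLI1 sites 70.3% of such regions were dox-only and 0.628% control-only. Farther than 1000 bp from a site, the windows held 52 control-only (41.6%) and 28 dox-only regions (22.4%), and a median ratio of −0.30 over 45 shared ones. Over all regions of the genome, whatever their distance from a site, 27.1% were control-only and 35.5% dox-only. Shares over the genome for the far regions alone are not given here. The regions beside the 4 sites thus stood near the shares of all GLI1 sites. Farther away, control-only regions were the larger class when both windows were pooled, but not in every stretch. Their excess lay mainly before Irx1 (25 control-only and 9 dox-only) and between Irx3 and Irx5 (9 and 1). Dox-only regions were the larger class before Irx3 (3 dox-only and 1 control-only) and after Irx6 (4 and 3), where no GLI1 site lay. With regions beside sites counted, the same held between Irx2 and Irx4 (4 and 2) and after Irx4 (7 and 2).

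**Figure D5:**
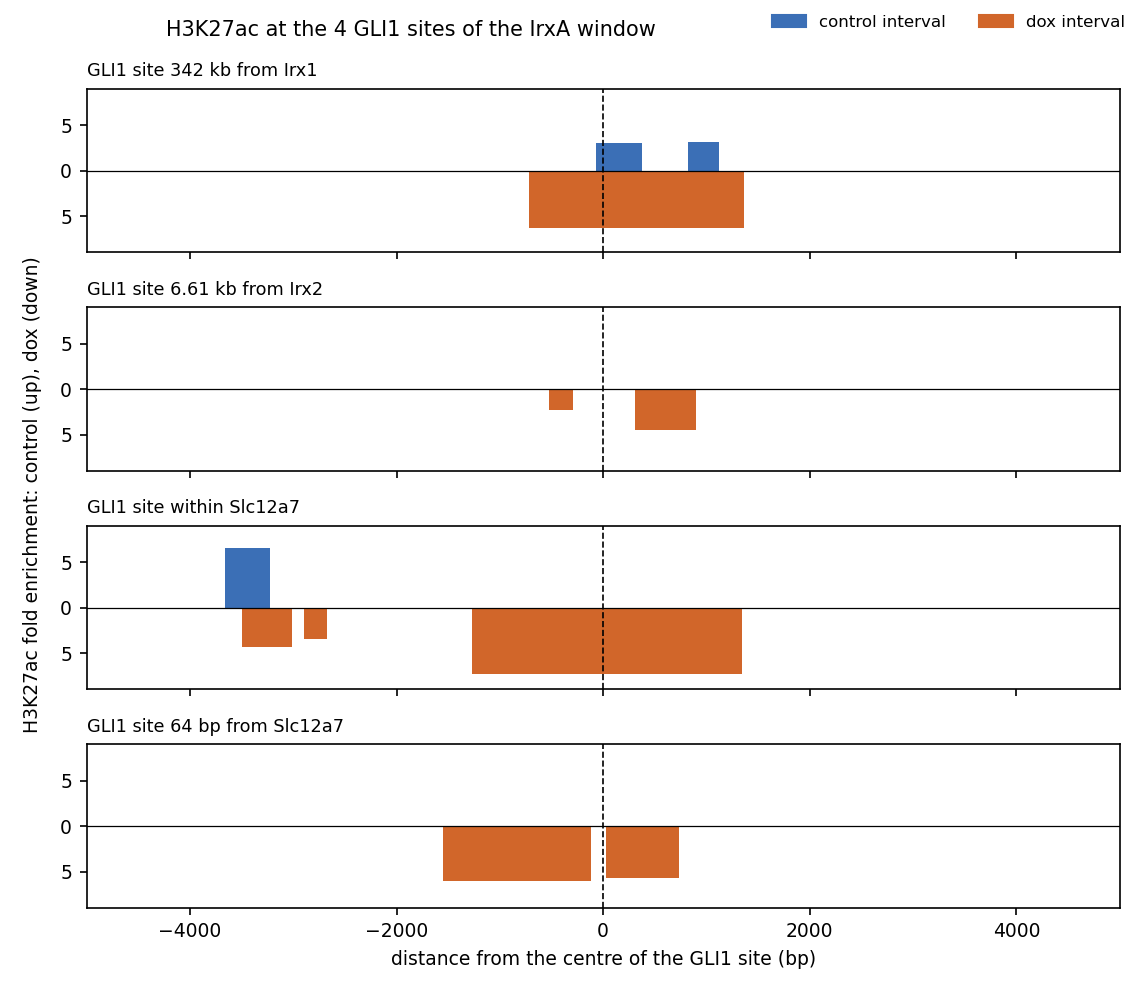
H3K27ac intervals of control cells (up) and dox cells (down) within 5 kb of the centre of each of the 4 GLI1 sites of IrxA, with fold enrichment as height and distance from the site in bp. Dox intervals lie at or on both sides of each site, and only the site 342 kb from Irx1 has control intervals at its centre.

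Other genes linked to the family were read from lists chosen with earlier results of these data known. Of 12 TALE homeobox genes outside the Iroquois family, cofactors such as Meis and Pbx among them, 10 were measured at a gene end in both conditions, with a median log2 ratio of 0.30 beside 0.14 over all measured genes. Pbx2 was at 1.07 (22.4 in control and 43.0 in dox cells; 3.77% of genes were at 1 or higher), none was at −1 or lower, and the lowest was Tgif1 at −0.52. Meis2 stood at −0.51 (32.9 and 21.1) and Meis1 at 0.28 (36.6 and 40.6). With 2.04% of all measured genes at −1 or lower, a count of 0 among 10 is near the background and does not set Irx1 apart from them.

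Among 14 heart genes linked to Irx factors, 5 were measured in both lists, none past 2-fold, with a median of −0.51. Myh7, the slow ventricular myosin heavy chain gene, had 15.4 and 8.43 (−0.74), Hand1 18.9 and 11.5 (−0.59), and Hey2, a ventricular repressor, 7.49 and 4.79 (−0.51). The connexin genes stood higher, Gja5 with 6.86 and 8.86 (0.50) and Gja1 with 23.8 and 25.9 (0.26). Kcnd2, the potassium channel gene under Irx5 control in the ventricle, had none at its ends. Of 10 analysed patterning partners, 6 were measured; Gli1 (9.03 in control and 35.4 in dox cells) and Ptch1 (log2 ratio 1.15) were past 2-fold higher, Hand2 (24.5 and 10.8) was past 2-fold lower, and Gli3 had 35.9 and 17.7 (−0.89).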

How the data were processed

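Chromatin immunoprecipitation and sequencing of H3K27ac and of tagged GLI1 gave 3 deposited lists, 1 per group. Bowtie2 2.3.2, SAMtools 1.5 and MACS2 2.1.1 are named with the build mm10, per the submitters' processing notes, without their roles. Per the deposited names, replicates were combined before peaks were called, and blacklisted regions and chrM were removed. The authors' H3K27ac values are a fold enrichment, a ratio of pileup to local background, and −log10 p and −log10 q; the GLI1 list gives 101 bp windows, replicated and with a Gli motif per the deposited name, with a value read as −log10 q because its lowest lies just above that of q = 0.05. The deposited integer score was not used.

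With Python 3.11.15, pandas 2.3.3 and scipy 1.17.1, summits of 1 interval were collapsed to the strongest and intervals sharing at least 1 bp were merged. Read pileups were recovered as the whole numbers that give back both deposited values within 0.01, for 99.96% of control and 99.92% of dox summits, and gave exact Poisson intervals; intervals of ratios used Clopper-Pearson limits on the share of the 2 pileups, with backgrounds held fixed. Ratios compare separately called lists and place a region relative to other shared regions. Genes came from RefSeq GRCm38.p6, which gives outer ends only. Peak numbers skip in places, read as removed peaks, and 1420 genes with an end there were not analysed; no number skips within the Iroquois windows. The computation was tested on simulated data. Named regions were, per window, all with a GLI1 site, the 5 strongest shared, up to 5 with the highest and lowest ratios past 2-fold, and the 3 strongest of each single list; further regions named were chosen after their values were seen. Members and lists were chosen with earlier results of these data known.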

Additional observations from a re-analysis of the deposited data

How the results depend on the processing

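Each list pools 2 samples, so leaving out a replicate could not be run. No paired analysis was possible because the columns carry no replicate and no result comes from a test. With only peaks of −log10 q of at least 10, IrxA kept 11 shared, 7 dox-only and 11 control-only regions and IrxB 7, 1 and 6, and 0 GLI1 sites lay in a control interval. With the margins exchanged (200 kb for IrxA, 600 kb for IrxB), IrxA had 13 shared, 11 dox-only and 15 control-only regions and IrxB 36, 23 and 28. Control-only regions outnumbered dox-only regions in both clusters under each setting run. Dox pileups scaled to the control depth, chosen after seeing the data, left 22 dox-only and 39 control-only regions in IrxA and 7 and 13 in IrxB. The genome-wide number of control-only regions per dox-only region also moved with the setting. It was 0.764 in the main setting, 0.896 with −log10 q of at least 10 and 0.808 with scaled pileups. The median ratios ranged from −0.46 (no centring) to −0.21 in IrxA and from −0.43 to −0.29 in IrxB, and Irx1 from −1.44 to −1.27. In total 45 of 58 alternative values stayed close to the reported one. Many of the 58 are counts of regions or sites, which cannot change sign. Among the log2 ratios, none changed sign. For Irx1, Irx3 and Irx5, a window of 5000 bp or the whole gene gave back exactly the reported value. Those alternatives therefore add nothing on how stable the ratios are. Depth limits single regions: the counting interval held 0 in 31 of 46 shared regions.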
